A study of Homo sapiens with 12 samples.

Results

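OCI-LY3 cells kept for 6 h with the CDK9 inhibitor AZ5576 were compared with OCI-LY3 cells collected at 0 h. OCI-LY3 is an established human cell line from a diffuse large B-cell lymphoma, or DLBCL, a fast-growing tumour of mature B cells. The members were chosen by their labels alone, as the 2 libraries labelled OCI-LY3 at 6 h and the 2 labelled OCI-LY3 at 0 h, 4 of the 12 libraries of the series, with every gene of the count table included. The 6 h cells had received 300 nM AZ5576. Per the labels the 0 h cells were untreated and were collected when the drug was added, while the series text speaks of vehicle-treated cells. The series further holds 2 OCI-LY3 libraries after 3 h of the drug, and 2 libraries each at 6 h, 3 h and 0 h of VAL, a second DLBCL line. RNA was selected by its poly(A) tail. The 6 OCI-LY3 libraries were sequenced on a single lane per the labels, so the lane does not separate 6 h from 0 h. Whether the 2 libraries of a group came from separate cultures is not stated, so p-values reflect only how these libraries spread, and that spread may be technical. As each group is 1 line at 1 dose, nothing here speaks of other lines or doses.

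CDK9 is the kinase of P-TEFb, the complex that releases RNA polymerase II from its pause near the start of genes. P-TEFb is held inactive by the 7SK particle with HEXIM1 and is brought to chromatin by several other factors. When CDK9 is blocked, new transcripts of most genes are cut short, and the mRNAs that turn over fastest, such as those of MCL1, MYC and many immediate-early genes, are known to be lost first. Cells that live on under CDK9 inhibition are known to bring more P-TEFb out of the 7SK particle, and the mRNAs of some of these genes are then made again.

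The count table lists 58233 genes, of which 28436 had a read in the 4 libraries, and 16374 had enough reads across the 12 libraries to be tested, 12629 of them protein coding. Total counts were 23175082 and 26305925 in the 6 h libraries and 36338085 and 39715536 in the 0 h libraries. Mitochondrially encoded mRNAs made up 5.26% of the counts at 6 h and 2.31% at 0 h, and ribosomal protein mRNAs made up 15.9% at 6 h and 9.42% at 0 h (means of 2 libraries). Expression is given in CPM, read counts scaled to a common library size with TMM factors, and changes are on the log2 scale, 6 h over 0 h, from edgeR's quasi-likelihood fit with Benjamini-Hochberg adjustment over all tested genes. A value after ± is the standard error of the log2 change. A gene passed at an adjusted p under 0.05. Sequencing without added standards gives shares of the mRNA, so a gene that held its level in a shrinking pool reads as higher. Under the default scaling the median log2 change of all tested genes was -0.01. Had mitochondrially encoded mRNAs been held constant it would have been -1.55, and with ribosomal protein mRNAs held constant -1.12. Fewer reads of a gene per cell and fewer cells that express it cannot be told apart in these bulk libraries.

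The 4 libraries carried the mRNAs of B cells throughout. MS4A1, which encodes CD20, had 1169 and 1159 CPM at 6 h and 784 and 786 CPM at 0 h. The summed level of the 8 tested B-cell markers was 4005 and 4134 CPM at 6 h and 3337 and 3348 CPM at 0 h. OCI-LY3 is generally classed as an activated B-cell-like line, for which high IRF4 is typical. In these libraries IRF4 had only 2.83 and 2.71 CPM at 0 h. Germinal-centre mRNAs divided. MME (CD10) had 155 and 157 CPM at 0 h, MYBL1 had 114 and 113 CPM and S1PR2 had 174 and 175 CPM. LMO2, another germinal-centre mRNA, had only 1 read in all at 0 h. MME, MYBL1, S1PR2 and LMO2 were among several line markers looked up after values were seen, and the identity of the cells was not tested. Markers of other blood cells were near 0 at 0 h, with summed levels of 0.683 and 0.632 CPM for 3 tested T and NK cell markers and 5.56 and 5.15 CPM for 4 tested myeloid markers. At 6 h those sums were 2.18 and 2.37 CPM for the T and NK cell markers and 21.6 and 21.1 CPM for the myeloid markers. MPO alone, the neutrophil peroxidase, accounted for 10.2 and 10.4 CPM at 6 h and had no read at 0 h, so it was at least 294-fold higher against a floor of 3 counts for the group. No erythroid marker was tested, and of the 2 tested epithelial and stromal markers COL1A1, a collagen chain, had 104 and 96.9 CPM at 6 h and 33.8 and 28.8 CPM at 0 h.

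After 6 h, 61.5% of tested genes had changed, 4606 (28.1%) being higher and 5469 (33.4%) lower than at 0 h, and the other 6299 did not pass. By 2-fold or more, 2511 (15.3%) were higher and 3573 (21.8%) lower. The split depends on the scaling. With mitochondrially encoded mRNAs held constant 1008 genes were higher and 11775 lower, with ribosomal protein mRNAs held constant 1177 were higher and 10302 lower, with library totals alone 3025 were higher and 6968 lower, and with upper-quartile factors 7027 were higher and 3506 lower. The replicates of each group lay close together: a chi-square test of their counts over genes gave 2.95 per degree of freedom at 6 h and 2.32 at 0 h, where counting noise alone gives 1.

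**Figure D1:**
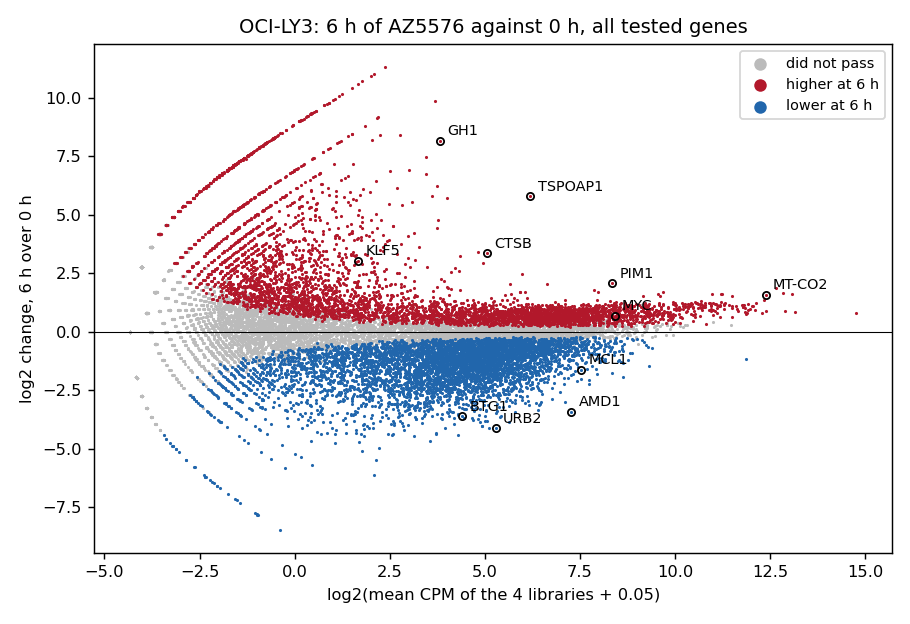
Each point is a tested gene, with its mean CPM over the 2 libraries at 6 h and the 2 at 0 h on the x axis (log2 of CPM + 0.05) and its fitted log2 change, 6 h over 0 h, on the y axis. Red points (4606) passed as higher, blue points (5469) as lower and grey points (6299) did not pass. The largest rises start from genes of low level, while the largest falls reach well expressed genes such as URB2 and AMD1.

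The protein-coding genes with the largest falls had almost left the mRNA pool by 6 h. B3GNT2, an enzyme that builds poly-N-acetyllactosamine chains, had 1.04 and 0.747 CPM at 6 h and 22.2 and 22.8 CPM at 0 h, a change of -4.66 ± 0.24 (adjusted p = 1.2e-07). URB2, a ribosome assembly factor at chr1:229626234-229660199 (GRCh38), had 4.35 and 4.04 CPM at 6 h against 73.2 and 73.7 CPM at 0 h and was 17.5-fold lower. CD180, a toll-like receptor relative of B cells, had 3.81 and 3.6 CPM at 6 h against 63.7 and 65.4 CPM at 0 h. Several of the lowest genes serve RNA itself. TAF5 at chr10:103367967-103389065, a subunit of the initiation factor TFIID, had 1.29 and 1.19 CPM at 6 h against 23 and 26.7 CPM at 0 h. CMTR2, which methylates the second nucleotide of the mRNA cap, had 0.940 and 0.571 CPM at 6 h against 16.4 and 16.9 CPM at 0 h. DBR1, which opens the lariats left by splicing, had 1.68 and 1.63 CPM at 6 h against 28.5 and 29.4 CPM at 0 h, and CSTF1, a subunit of the cleavage stimulation factor that acts at poly(A) sites, had 3.17 and 3.78 CPM at 6 h against 56.2 and 58.6 CPM at 0 h. Also among the lowest 10 were DOLPP1, an enzyme of dolichol recycling, at 20.8-fold lower, and ARID5B at 18.4-fold lower. In all 10 genes both 6 h libraries lay below both 0 h libraries, as the rule that chose these genes required. Their adjusted p ranged from 6.2e-08 to 3.7e-06. TAF5 overlaps another expressed gene, so its reads may be shared.

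Among protein-coding genes whose CPM averaged 5 or more across the 6 OCI-LY3 libraries, those with the largest rises were of low level at 0 h. They reach that mean through the treated libraries, in which they are high. GH1, the gene of growth hormone, had 29.4 and 26.9 CPM at 6 h and 0.171 and 0.0226 CPM at 0 h, a change of 8.16 ± 0.34 (adjusted p = 6.2e-08). APOE, the lipid carrier apolipoprotein E, had 21.4 and 22.1 CPM at 6 h and 0.146 and 0.0903 CPM at 0 h. PYGM, the muscle form of glycogen phosphorylase, had 28.2 and 24.1 CPM at 6 h and 0.512 and 0.181 CPM at 0 h. TSPOAP1, which encodes a RIM-binding protein, reached the highest level of the set, 147 and 140.5 CPM at 6 h against 2.85 and 2.3 CPM at 0 h, 55.8-fold higher. CHRNA9, a nicotinic receptor subunit, had 23.9 and 19.6 CPM at 6 h and 0.146 and 0.248 CPM at 0 h. The remaining 5 of the highest 10 were PRR18, PHLDA1, C1orf162, ASTL and GAB2, with log2 changes of 6.91, 5.73, 5.54, 5.42 and 4.50. Both 6 h libraries lay above both 0 h libraries in all 10, which the rule that chose them required. Such genes had few reads at 0 h, 8 in all for GH1, so the size of these folds is uncertain.

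Some of these risers lie just behind a strongly expressed gene. GH1 starts 9902 bases after the end of CD79B on the same strand, and CD79B encodes a subunit of the B-cell receptor. APOE starts 2065 bases after TOMM40, PYGM 4309 bases after SF1, PHLDA1 2655 bases after NAP1L1, and ASTL 4730 bases after DUSP2. Of the 1421 tested genes that rose at least 4-fold, 245 (17.2%) had a same-strand gene of at least 20 CPM at 0 h ending within 10 kb upstream. The same held for 15.4% of the 3164 that rose by less, for 9.55% of those that did not pass, for 6.19% of the 1325 that fell at least 4-fold, and for 11.04% of all tested genes. The genes that rose at least 4-fold had a median of only 0.047 CPM at 0 h, beside 8.99 CPM for all tested genes. Of genes with at least 5 CPM at 0 h just 8 rose at least 4-fold, 2 of them with such a neighbour, against 14.1% of those that rose by less, 10.5% of those that did not pass and 6.91% of those that fell at least 4-fold. The limits on distance and level were set with these data known, and no test was made of the shares. The library kit is not one that marks strand, so reads that run on from a gene and reads of its neighbour cannot be told apart by strand either.

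Among small RNAs that normally lack a poly(A) tail, snRNAs mostly rose and snoRNAs were more often lower than higher. RNU5A-1, a U5 spliceosomal RNA, had 24.6 and 26.5 CPM at 6 h and 2 reads in all at 0 h, a ratio of 1093 with a 95% counting interval of 302 to 9034. SNORD3A, a U3 small nucleolar RNA, had 25.5 and 26.9 CPM at 6 h and 0.781 and 1.13 CPM at 0 h, and its close copy SNORD3B-1 had 22.6 and 25.5 CPM at 6 h and 0.366 and 0.474 CPM at 0 h. Reads may be split between such copies, so the value of each copy is uncertain. Of 25 tested snRNA genes 19 were higher and 1 lower, with a median log2 change of 2.77, while of 39 tested snoRNA genes 7 were higher and 12 lower, with a median of -0.40. Over all tested genes 28.1% were higher and 33.4% lower. The median level over the OCI-LY3 libraries was only 0.47 CPM for the snRNA genes and 0.35 CPM for the snoRNA genes. Most of these changes thus rest on few reads. The fourth of the highest noncoding genes was AP001273.1, which starts 143 bases after TAF1D on the same strand and had 15.8 and 13.9 CPM at 6 h against 0.829 and 0.926 CPM at 0 h. The lowest noncoding genes were PP7080, HEIH, AC016747.1 and CROCCP2, with log2 changes of -3.20, -3.11, -3.04 and -2.99.

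A core list with genes of survival, cell death, growth, signalling and transcription divided in direction by 6 h. Of 24 core genes 4 were higher, 9 lower and 11 did not pass, with a median of -0.18, or 0.34 with upper-quartile factors, beside -0.01 for all tested genes. MCL1, the anti-apoptotic protein on which many lymphomas depend, lies at chr1:150574551-150579738 on the reverse strand. It had 275 and 283 CPM at 0 h, 51.2 and 46.8 CPM at 3 h and 99.4 and 81.4 CPM at 6 h. At 6 h it was still 3.08-fold below 0 h, -1.62 ± 0.16 (adjusted p = 6.9e-06), in both libraries, though above 3 h by 0.88 ± 0.16 (adjusted p = 0.002), a difference of 0.46 that no longer passed with mitochondrial or with ribosomal protein mRNAs held constant. MYC, the growth-promoting transcription factor, had 258 and 264 CPM at 0 h, 109 and 103 CPM at 3 h and 435 and 404 CPM at 6 h. Its level at 6 h stood above that at 0 h by 0.68 ± 0.09 (adjusted p = 6.5e-05), with a change of -0.87 or -0.44 with mitochondrial or ribosomal protein mRNAs held constant. PIM1, a serine/threonine kinase that promotes survival, had 126 and 125 CPM at 0 h, 115 and 107 CPM at 3 h and 534 and 514 CPM at 6 h. With 4.18-fold more at 6 h than at 0 h (2.06 ± 0.10, adjusted p = 8.2e-08) it rose the most of the 24, and its change was positive under every scaling tried.

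BCL6, the repressor that holds B cells in the germinal-centre state, had 191 and 195 CPM at 0 h, 79 and 82.7 CPM at 3 h and 290.3 and 272 CPM at 6 h. BCL2L1, the gene of the anti-apoptotic BCL-XL, had 63.2 and 63.1 CPM at 0 h, 50.4 and 42.4 CPM at 3 h and 108 and 106 CPM at 6 h. Both were higher at 6 h than at 0 h under the default scaling, by 0.54 and 0.76, and lower with mitochondrial or ribosomal protein mRNAs held constant, with changes of -1.02 and -0.58 for BCL6 and -0.80 and -0.36 for BCL2L1. The target kinase itself fell: CDK9 had 37 and 34.2 CPM at 6 h and 63.4 and 62.3 CPM at 0 h (-0.82 ± 0.10, adjusted p = 5.1e-05). HEXIM1, the P-TEFb inhibitor, had 8.56 and 9.1 CPM at 6 h against 16.6 and 16.7 CPM at 0 h. CD79B, JUNB, IER2 and IRF4 also fell, with log2 changes of -1.20, -0.69, -0.58 and -0.96. PRDM1, the plasma-cell repressor BLIMP1, fell from a trace and reached at most 0.927 CPM in any of the 6 libraries. CCNT1, the cyclin partner of CDK9, had 85.4 and 68.8 CPM at 6 h and 72.2 and 71.2 CPM at 0 h and did not pass. NFKBIA, CDKN1A, PMAIP1, BCL2, BCL2A1, BCL2L11, POLR2A, EGR1, FOS and CCND2 did not pass either, with changes between -0.32 (PMAIP1) and 0.54 (EGR1), and CCND2 and FOS were under 0.5 CPM throughout. With mitochondrial or ribosomal protein mRNAs held constant CCNT1 changed by -1.46 or -1.02, NFKBIA by -1.74 or -1.31 and CDKN1A by -1.59 or -1.16, all of which passed as lower. That a gene did not pass does not show that its level was the same.

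**Figure D2:**
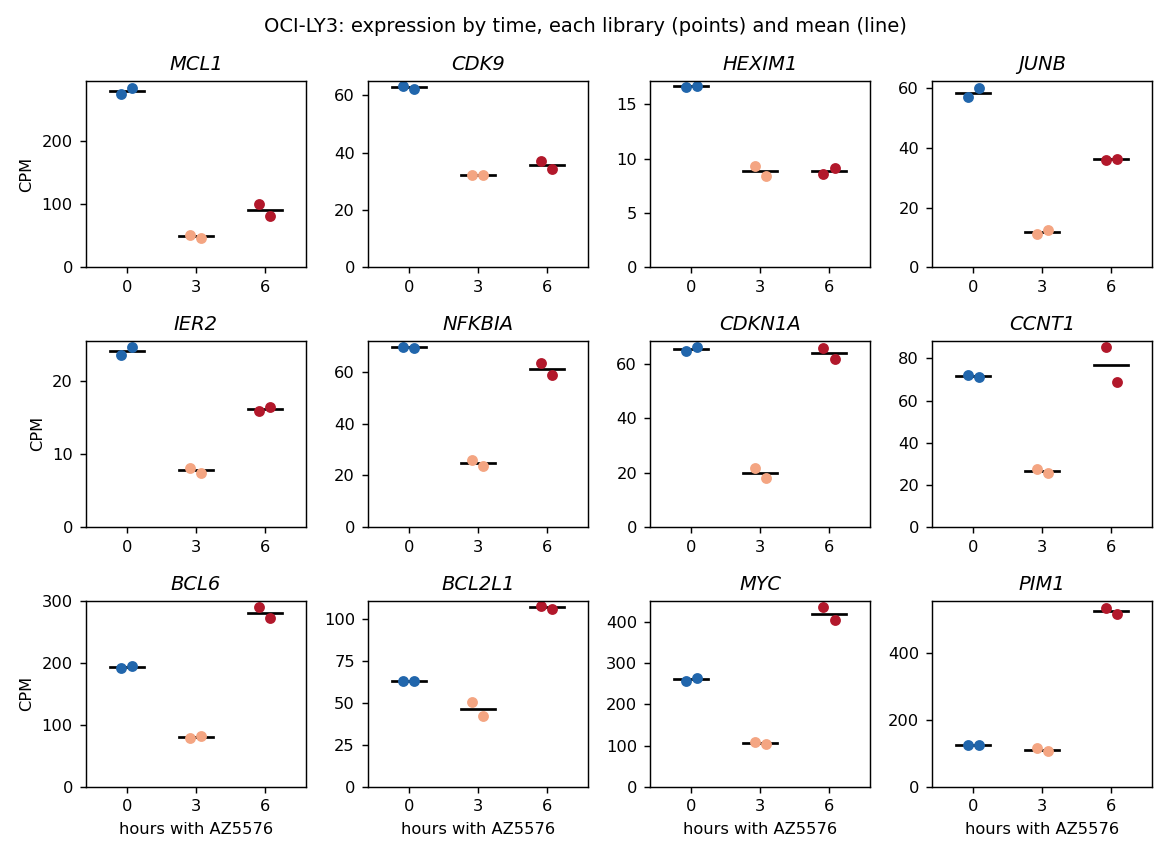
Each panel shows 1 core gene in OCI-LY3, with CPM (TMM-scaled) on the y axis from 0 and hours with AZ5576 on the x axis. Points are the 2 libraries of each time and lines their mean. MCL1 at 6 h lies between its 3 h and 0 h levels, NFKBIA, CDKN1A and CCNT1 lie near their 0 h level, and MYC, BCL6, BCL2L1 and PIM1 lie above it under this scaling. With mitochondrial or ribosomal protein mRNAs held constant, PIM1 alone of these 7 lies above its 0 h level.

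Around these genes, death receptor and inhibitor-of-apoptosis genes mostly fell, while most members of the BCL2 family did not pass. Of 19 tested death receptor and inhibitor-of-apoptosis genes 16 were lower, 2 higher and 1 did not pass, with a median of -1.01. FAS, a death receptor, had 12.4 and 11.5 CPM at 6 h against 60.5 and 61.2 CPM at 0 h, and TNFRSF10B, a receptor for TRAIL, had 14.9 and 13.7 CPM at 6 h against 83.5 and 78 CPM at 0 h. RIPK1, a kinase of death receptor complexes, had 3.31 and 2.68 CPM at 6 h against 30.6 and 31.3 CPM at 0 h. BIRC2, which encodes the inhibitor cIAP1, went the other way with 74.7 and 61.5 CPM at 6 h and 27.1 and 26.6 CPM at 0 h, a rise of 1.34 that was -0.22 with mitochondrially encoded mRNAs held constant. Of 11 tested pro-apoptotic BCL2 genes 4 were lower, 1 higher and 6 did not pass, with 33.4% lower among all tested genes. BAK1, a pore-forming member, had 7.07 and 7.69 CPM at 6 h against 20.9 and 23.4 CPM at 0 h. BMF, a BH3-only member, had 0.544 and 0.615 CPM at 6 h against 3.66 and 4.06 CPM at 0 h. Of 5 tested anti-apoptotic BCL2 genes BCL2L1 rose, MCL1 fell and 3 did not pass. The PIM family divided too, as PIM2 had 45.2 and 41 CPM at 6 h against 76.2 and 77.7 CPM at 0 h and PIM3 had 11.1 and 9.62 CPM at 6 h against 66.9 and 68.1 CPM at 0 h, while PIM1 rose.

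Genes of P-TEFb, Mediator and the SR splicing factors were mostly lower, and other lists of the transcription machinery divided. Coding genes of at least 5 CPM in OCI-LY3 divided too, with 47.6% lower and 25.5% higher. The shares in the RNA polymerase II list and in the poly(A) cleavage list were near those. Of 13 tested genes of P-TEFb, the 7SK particle and the BET family 11 were lower, 1 higher and 1 did not pass, with a median of -0.92 that stayed below 0 under every scaling tried. MEPCE, which caps 7SK RNA, had 5.34 and 7.34 CPM at 6 h against 94.1 and 92.4 CPM at 0 h (-3.87 ± 0.17, adjusted p = 7.4e-08). BRD2, a BET reader of acetylated histones, had 68 and 64.1 CPM at 6 h against 242 and 238 CPM at 0 h. SUPT5H, the elongation factor SPT5 that CDK9 phosphorylates, had 305 and 323 CPM at 6 h against 243 and 235 CPM at 0 h and was the 1 member that rose, by 0.39, or -1.16 with mitochondrially encoded and -0.73 with ribosomal protein mRNAs held constant. Of 33 tested subunits of Mediator, which links activators to the polymerase, 20 were lower and 5 higher, with a median of -1.10. MED26, the subunit that can recruit elongation factors, had 82.2 and 79.9 CPM at 6 h against 19.1 and 20.1 CPM at 0 h and rose by 2.05 ± 0.29, whereas MED8 had 5.29 and 4.88 CPM at 6 h against 25.1 and 23.5 CPM at 0 h. Of 17 tested SR splicing factors and CLK kinases 11 were lower and 1 higher. SRSF6 had 57.9 and 58.9 CPM at 6 h against 232 and 229.8 CPM at 0 h, and CLK2, a kinase of SR proteins, had 18.6 and 16.3 CPM at 6 h against 59.8 and 55.4 CPM at 0 h. Of 38 tested subunits of RNA polymerase II and initiation factors 17 were lower and 9 higher, with a median of -0.20, or 0.32 with upper-quartile factors. Elongation factors and transcriptional kinases had 21 lower and 10 higher of 36, with a median of -0.44, or 0.0024 with upper-quartile factors. Genes of poly(A) cleavage, termination and the Integrator complex had 18 lower and 9 higher of 35, with a median of -0.39, or 0.13 with upper-quartile factors.

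Zinc-finger ZNF genes, many of which encode repressors, mostly fell. Coding genes of at least 5 CPM in OCI-LY3 were lower in 47.6% and higher in 25.5% of cases. In their second lowest quintile by 0 h level 58.5% were lower, and the lists below were not matched to other genes by level. Of 424 tested ZNF genes 277 were lower, 39 higher and 108 did not pass, with a median of -1.22 that was -0.71 with upper-quartile factors. ZNF200 had 1.83 and 2.24 CPM at 6 h against 27.1 and 25.8 CPM at 0 h, and ZNF639 had 9.89 and 7.87 CPM at 6 h against 58.5 and 58.3 CPM at 0 h. ZNF843, in contrast, had 0.890 and 1.1 CPM at 6 h and no read at 0 h, at least 28.4-fold higher against the floor of 3 counts for the group. Of 50 tested nucleolar genes of ribosome assembly 35 were lower and 6 higher, with a median of -0.78. POLR1B, a subunit of RNA polymerase I, had 18.7 and 18.7 CPM at 6 h against 102 and 102 CPM at 0 h, and GRWD1, an assembly chaperone, had 13.8 and 16.7 CPM at 6 h against 152 and 154 CPM at 0 h. NPM1, the abundant nucleolar protein nucleophosmin, had 4687 and 4556 CPM at 6 h against 2723 and 2806 CPM at 0 h and rose by 0.74, or -0.82 with mitochondrially encoded and -0.38 with ribosomal protein mRNAs held constant.

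Genes of mitosis mostly fell, and those of DNA replication and G1 were lower more often than higher. The shares for replication and G1 were near those of coding genes of at least 5 CPM in OCI-LY3, 47.6% lower and 25.5% higher. Of 37 tested mitotic spindle and checkpoint genes 25 were lower, 6 higher and 6 did not pass, with a median of -0.76. TTK, the checkpoint kinase MPS1, had 14.5 and 14.6 CPM at 6 h against 118 and 119.5 CPM at 0 h. PLK4, the kinase of centriole duplication, had 8.66 and 8.88 CPM at 6 h against 45.2 and 45.8 CPM at 0 h, and KIF11, a spindle motor, had 57.2 and 59.5 CPM at 6 h against 199 and 196 CPM at 0 h. Among 47 tested genes of DNA replication and the E2F factors 23 were lower and 13 higher, with a median of -0.37 that was 0.15 with upper-quartile factors. RRM2, a subunit of ribonucleotide reductase, had 71.4 and 72.4 CPM at 6 h against 208 and 209.5 CPM at 0 h, whereas E2F2 had 224 and 206 CPM at 6 h against 129 and 128 CPM at 0 h, a rise of 0.74 that was -0.82 with mitochondrially encoded and -0.39 with ribosomal protein mRNAs held constant. In homologous recombination and the Fanconi pathway 18 of 33 tested genes were lower and 4 higher, with a median of -0.48, or 0.03 with upper-quartile factors. BARD1, the partner of BRCA1, had 8.56 and 5.67 CPM at 6 h against 40.2 and 41.9 CPM at 0 h. Of 18 tested G1 cyclins, their kinases and inhibitors 8 were lower, 4 higher and 6 did not pass, with a median of -0.27, or 0.25 with upper-quartile factors. CDKN1B, the cell-cycle inhibitor p27, had 39 and 40.1 CPM at 6 h against 15.4 and 17.2 CPM at 0 h.

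No list of stress genes moved in a single direction. Coding genes of at least 5 CPM in OCI-LY3 were lower in 47.6% and higher in 25.5% of cases. Of 30 tested p53 targets 17 were lower and 3 higher, with a median of -0.53, and MDM2, the inhibitor of p53, had 40.1 and 35.7 CPM at 6 h against 117 and 121 CPM at 0 h. Of 23 tested genes of the integrated stress response 14 were lower and 4 higher, with a median of -1.11. DDIT3, the factor CHOP, had 0.396 and 0.747 CPM at 6 h against 7.29 and 7.54 CPM at 0 h, while ASNS, asparagine synthetase, had 187 and 184 CPM at 6 h against 105 and 110.2 CPM at 0 h and rose by 0.79, or -0.77 with mitochondrially encoded and -0.34 with ribosomal protein mRNAs held constant. Cytosolic heat-shock chaperones divided evenly, with 9 higher and 9 lower of 25 tested. The inducible DNAJB1 had 18.3 and 17.1 CPM at 6 h against 144 and 148 CPM at 0 h, and the abundant HSP90AB1 had 6941 and 6923 CPM at 6 h against 3752 and 3752 CPM at 0 h. In the NRF2 and glutathione group 11 of 20 tested genes were higher and 5 lower, with a median of 0.81 that was -0.73 with mitochondrially encoded and -0.29 with ribosomal protein mRNAs held constant. NFE2L2, which encodes NRF2, and its inhibitor KEAP1 were among those that fell, with 14.3 and 13.3 CPM at 6 h against 75.3 and 74.2 CPM at 0 h for NFE2L2 and 27.5 and 25.2 CPM at 6 h against 124 and 123 CPM at 0 h for KEAP1. Of 25 tested genes of sterol synthesis and uptake 13 were lower and 5 higher, near the shares of the coding genes above. Glycolysis had 14 genes higher and 7 lower of 23, with a median of 0.80, or -0.76 and -0.33 with mitochondrial and ribosomal protein mRNAs held constant, and its lowest named member was the regulator PFKFB3 with 4.11 and 4.22 CPM at 6 h against 41.9 and 40.7 CPM at 0 h. AMD1, a rate-limiting enzyme of polyamine synthesis whose mRNA is known to turn over fast, had 29 and 23.5 CPM at 6 h against 274 and 290.4 CPM at 0 h.

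Under the default scaling most genes of the ribosomal proteins, the respiratory chain and the proteasome were higher at 6 h. All 13 mitochondrially encoded mRNAs were higher, with a median of 1.60 beside -0.01 for all tested genes. These are made by a polymerase of the mitochondrion, not by RNA polymerase II. MT-CO2, a subunit of cytochrome c oxidase, had 8129.8 and 7814 CPM at 6 h against 2662 and 2679.9 CPM at 0 h. Of 86 tested cytosolic ribosomal protein genes 80 were higher, 2 lower and 4 did not pass, with a median of 1.14 under the default scaling and -0.42 with mitochondrially encoded mRNAs held constant. RPLP2 had 2155 and 2140.2 CPM at 6 h against 899 and 919 CPM at 0 h, and the 2 that fell were RPL7L1 and RPL36A, of which RPL7L1 is known for ribosome assembly and is not a standard part of the mature ribosome. Of 75 tested nuclear genes of the respiratory chain 69 were higher and 1 lower, with a median of 0.95, or -0.61 and -0.17 with mitochondrial and ribosomal protein mRNAs held constant. Proteasome subunit genes had 24 higher and 1 lower of 37, with a median of 0.61, or -0.94 and -0.51 under those scalings, and PSMD5, an assembly chaperone of the proteasome, was the 1 that fell, with 24.4 and 23 CPM at 6 h against 57.9 and 59.4 CPM at 0 h. Genes of the mitochondrial ribosome had 20 higher, 22 lower and 36 not passing of 78, and a median of 0.09 that was -1.47 and -1.04 under those scalings. MRPS30 had 17.7 and 18.1 CPM at 6 h against 95 and 96.5 CPM at 0 h. Of 44 tested histone cluster genes, most of whose mRNAs normally lack a poly(A) tail, 21 were higher and 2 lower, with a median of 0.93, or -0.53 with mitochondrially encoded and -0.10 with ribosomal protein mRNAs held constant. Processed pseudogenes, many of them copies of abundant mRNAs, were higher in 277 of 621 cases and lower in 33 under the default scaling, and reads shared with their parent genes make both uncertain.

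**Figure D3:**
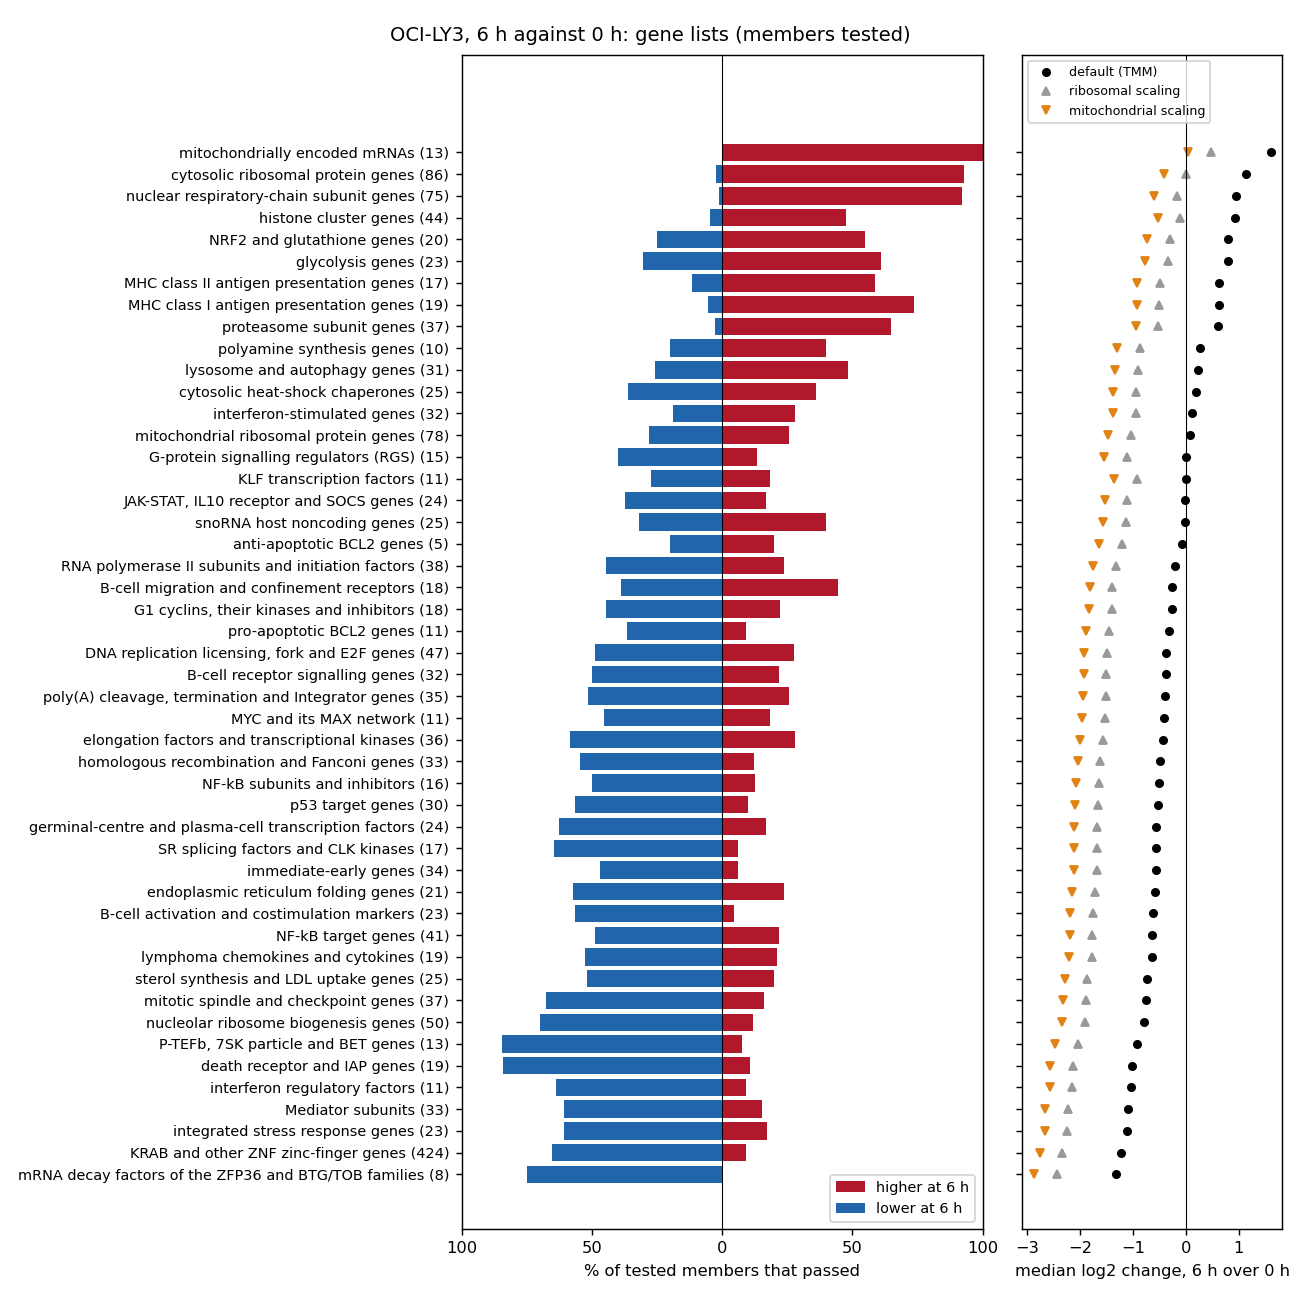
The left panel gives, for each gene list with at least 5 tested members (number in brackets), the percentage of members that passed as higher (red, to the right) or lower (blue, to the left) at 6 h against 0 h. The right panel gives the median log2 change of the same members under the default scaling (black circles), with ribosomal protein mRNAs held constant (grey triangles) and with mitochondrially encoded mRNAs held constant (orange triangles). Under the default scaling mitochondrially encoded mRNAs and ribosomal protein genes have the highest medians, 1.60 and 1.14, but with mitochondrially encoded mRNAs held constant all medians other than that list's own are below 0.

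Among genes of the B cell, those of antigen presentation were mostly higher under the default scaling and transcription factors mostly lower. Of 19 tested genes of MHC class I presentation 14 were higher and 1 lower, with a median of 0.63 that was -0.93 with mitochondrially encoded and -0.50 with ribosomal protein mRNAs held constant. B2M, the light chain of class I molecules, had 1964 and 1887 CPM at 6 h against 834 and 857 CPM at 0 h. Of 17 tested genes of MHC class II presentation 10 were higher and 2 lower, with a median of 0.63, or -0.92 and -0.49 under those scalings. CD74, the invariant chain, had 1857 and 1941 CPM at 6 h against 916 and 939 CPM at 0 h, whereas HLA-DRA, usually among the most abundant mRNAs of B cells, had only 8.41 and 4.83 CPM at 6 h and 1.83 and 2.19 CPM at 0 h. Of 32 tested genes of B-cell receptor signalling 16 were lower and 7 higher, with a median of -0.37, or 0.14 with upper-quartile factors. These shares were near those of coding genes of at least 5 CPM in OCI-LY3, 47.6% lower and 25.5% higher. MYD88, the adaptor of toll-like receptors, had 18.9 and 21.7 CPM at 6 h against 77.3 and 76 CPM at 0 h, and BLNK, an adaptor below the receptor, had 15.8 and 15.9 CPM at 6 h against 41.5 and 43.3 CPM at 0 h. BTK, the receptor kinase targeted by ibrutinib, had 324 and 315 CPM at 6 h against 212 and 211 CPM at 0 h and rose by 0.59, or -0.96 with mitochondrially encoded and -0.53 with ribosomal protein mRNAs held constant.

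Transcription factors of the germinal centre and the plasma cell were lower in 15 of 24 cases and higher in 4, with a median of -0.55. For comparison, 47.6% of coding genes of at least 5 CPM in OCI-LY3 were lower and 25.5% higher. FOXO1, needed for the dark zone of the germinal centre, had 16 and 15.2 CPM at 6 h against 105 and 107 CPM at 0 h, and SPIB, an ETS factor of B cells, had 39.1 and 38.2 CPM at 6 h against 89.9 and 89.1 CPM at 0 h. BACH2, a repressor of plasma-cell fate, had 25.1 and 26.2 CPM at 6 h against 6.9 and 7.31 CPM at 0 h and rose by 1.85 ± 0.23 (adjusted p = 4.7e-05). IRF8, a factor of the germinal centre and of the interferon response, had 161 and 168 CPM at 0 h, 129 and 123 CPM at 3 h and 338 and 329 CPM at 6 h. Its rise over 0 h of 1.02 was -0.54 with mitochondrially encoded and -0.11 with ribosomal protein mRNAs held constant. Of 11 tested interferon regulatory factors and IRF2-binding proteins, IRF8 included, 7 were lower and 1 higher, and IRF1 had 4.7 and 3.6 CPM at 6 h against 24.6 and 23.1 CPM at 0 h. Receptors of B-cell migration and confinement had 8 higher and 7 lower of 18. S1PR4 had 8.85 and 8.31 CPM at 6 h against 50.7 and 53.7 CPM at 0 h.

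Genes of the NF-kB system, on which activated B-cell-like DLBCL is known to depend, were lower more often than higher at 6 h. So were coding genes of at least 5 CPM in OCI-LY3, of which 47.6% were lower and 25.5% higher. The shares of lower genes in both NF-kB lists were near that. Of 41 tested NF-kB targets 20 were lower and 9 higher, with a median of -0.64, and of 16 tested subunits and inhibitors 8 were lower and 2 higher, with a median of -0.51, or 0.01 with upper-quartile factors. RELA, the p65 subunit, had 23.7 and 22.7 CPM at 6 h against 77.1 and 80.4 CPM at 0 h. NFKBIE, an inhibitor, had 13.5 and 11.7 CPM at 6 h against 59.3 and 61.7 CPM at 0 h. BCL3 and NFKBIZ, both atypical nuclear members of the inhibitor family, rose. BCL3 had 12 and 11.6 CPM at 0 h, 5.65 and 6.13 CPM at 3 h and 25.3 and 26.1 CPM at 6 h. NFKBIZ had 76.4 and 64.1 CPM at 6 h against 31.4 and 29.8 CPM at 0 h. The rises of BCL3 (1.12) and NFKBIZ (1.20) were -0.43 and -0.36 with mitochondrially encoded mRNAs held constant, and that of BCL3 was gone with ribosomal protein mRNAs held constant. CCL22, a chemokine, had 204 and 191 CPM at 6 h against 81 and 74.9 CPM at 0 h.

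At 6 h immediate-early genes were more often lower than higher against 0 h, and more often higher than lower against 3 h. Against 0 h, 16 of 34 tested members were lower at 6 h, 2 higher and 16 did not pass, with a median of -0.56. Of coding genes of at least 5 CPM in OCI-LY3, 47.6% were lower and 25.5% higher, so the share lower was near that of such genes. Against 3 h, 16 were higher at 6 h, 1 lower and 17 did not pass, with a median of 0.97 beside 0 for all tested genes, of which 12% were higher and 16.3% lower. JUNB, a subunit of AP-1, had 57 and 59.98 CPM at 0 h, 11.1 and 12.5 CPM at 3 h and 36.1 and 36.4 CPM at 6 h. IER2 had 23.7 and 24.7 CPM at 0 h, 8.17 and 7.39 CPM at 3 h and 15.9 and 16.4 CPM at 6 h. For both genes the 6 h libraries lay between those of the other times, without overlap. SGK1, a kinase that is induced by many stimuli, had 44.6 and 45.4 CPM at 0 h, 3.28 and 2.1 CPM at 3 h and 4.25 and 5.45 CPM at 6 h, and BTG1, an antiproliferative gene that also serves mRNA decay, had 39.6 and 38 CPM at 0 h, 4.56 and 4.1 CPM at 3 h and 3.31 and 3.08 CPM at 6 h, so SGK1 was above 3 h by 0.86 (adjusted p = 0.016) and BTG1 did not pass. Of 8 tested mRNA decay factors of the ZFP36 and BTG/TOB families 6 were lower than at 0 h and 0 higher, while 5 were higher than at 3 h and 0 lower. ZFP36L2, which binds AU-rich elements, had 56.4 and 60.2 CPM at 0 h, 3.46 and 5.08 CPM at 3 h and 8.85 and 8.22 CPM at 6 h.

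Between 3 h and 6 h, 28.3% of tested genes changed, 1958 (12%) rising and 2670 (16.3%) falling, while 11746 did not pass. By 2-fold or more, 1260 (7.7%) were higher and 770 (4.7%) lower. This comparison rests partly on the 3 h libraries, whose replicates differed more, with 19.8 by the same chi-square measure. Without replicate 1 or 2 of the 6 h libraries 1070 or 1239 genes rose and 1559 or 1549 fell, and without replicate 1 or 2 of the 3 h libraries 1215 or 1076 rose and 1872 or 1538 fell. Of the core genes 13 of 24 were higher at 6 h than at 3 h, 1 (CD79B) was lower and 10 did not pass. The calls of CD79B and IRF4 (which was higher) did not hold in 3 of the 4 fits that leave out a library, which gave -0.82 to -0.62 for CD79B and 0.59 to 1.09 for IRF4. With the same minimum level, the genes that rose most after 3 h were CHRNA9, GADD45B, ASTL, TSPOAP1, ID2, ACKR3, SLC30A1 and PYGM. GADD45B, a stress gene of the NF-kB pathway, had 36.2 and 34.6 CPM at 0 h, 6.49 and 5.89 CPM at 3 h and 60.4 and 49 CPM at 6 h. ID2, an inhibitor of E proteins, had 11.7 and 12.6 CPM at 0 h, 0.985 and 0.981 CPM at 3 h and 6.68 and 5.32 CPM at 6 h. ACKR3, an atypical chemokine receptor, had 9.9 and 10.2 CPM at 0 h, 1.79 and 2.17 CPM at 3 h and 12.1 and 11.6 CPM at 6 h, and SLC30A1, the zinc exporter of the plasma membrane, had 24.6 and 23.8 CPM at 0 h, 2.92 and 3.54 CPM at 3 h and 22.3 and 16.2 CPM at 6 h. Neither ACKR3 nor SLC30A1 passed against 0 h under the default scaling. Among the largest falls after 3 h were those of TAF5, DNMT3B, CCDC102A, KNSTRN, METTL13, UTP15 and TTK. In each of these the 3 h libraries already lay below the 0 h libraries. That the 6 h libraries lay below those at 3 h was required by the rule that chose these genes. METTL13, a methyltransferase, had 88.4 and 89.1 CPM at 0 h, 44.3 and 44.4 CPM at 3 h and 9.84 and 9.89 CPM at 6 h, and UTP15, a nucleolar assembly factor, had 59.1 and 58.2 CPM at 0 h, 22 and 20.002 CPM at 3 h and 4.75 and 4.83 CPM at 6 h. Of the mitotic list 21 of 37 genes fell further after 3 h and none rose, beside 16.3% of all tested genes, and of the nucleolar list 20 of 50 fell and 2 rose. Against 0 h the fits at 3 h and at 6 h share their 0 h libraries, so they are given side by side only: MCL1 -2.51 at 3 h and -1.62 at 6 h, MYC -1.30 at 3 h and 0.68 at 6 h, PIM1 -0.17 at 3 h and 2.06 at 6 h, and URB2 -2.67 at 3 h and -4.13 at 6 h.

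Promoters were read for 9849 tested coding genes that RefSeq's promoter table (GRCh38.p14) holds, over the 250 bases before the gene's start. The letters TATAAA, the core of the TATA box, stood on either strand in 5.47% of all these promoters. They stood in 9.29% of the 1119 genes at least 2-fold higher at 6 h than at 0 h and in 4.89% of the 2514 at least 2-fold lower. In the comparison of 6 h with 3 h the shares were 9.60% of 698 higher genes and 4.40% of 546 lower genes. The letters GGGCGG, a core of GC boxes, stood in 66.4% of all promoters, 58.3% of those higher than at 0 h and 67.02% of those lower. The letters CCAAT stood in 35.3% of all, 32.2% of those higher and 37.4% of those lower. Mean GC content was 63.8% over all, 62.5% in those higher and 64.2% in those lower, and no test was made of these shares. Shown next are the promoters of JUNB and NFKBIA, which rose after 3 h, of PIM1, the core gene that rose most, and of TAF5, which fell throughout. Capitals mark matches to the 3 motifs on either strand, and each promoter is read 5′ to 3′ towards the gene.
JUNB, chr19:12791236-12791485, forward strand: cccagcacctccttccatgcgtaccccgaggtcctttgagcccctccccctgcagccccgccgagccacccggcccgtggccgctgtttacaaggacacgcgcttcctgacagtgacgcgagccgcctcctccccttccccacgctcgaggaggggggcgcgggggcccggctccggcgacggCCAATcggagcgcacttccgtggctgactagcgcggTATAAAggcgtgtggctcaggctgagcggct
NFKBIA, chr14:35404750-35404999, reverse strand: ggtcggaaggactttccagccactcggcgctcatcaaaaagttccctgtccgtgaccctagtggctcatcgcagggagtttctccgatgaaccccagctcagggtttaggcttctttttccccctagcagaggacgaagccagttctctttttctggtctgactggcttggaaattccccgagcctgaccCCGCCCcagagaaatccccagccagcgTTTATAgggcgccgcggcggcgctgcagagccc
PIM1, chr6:37169902-37170151, forward strand: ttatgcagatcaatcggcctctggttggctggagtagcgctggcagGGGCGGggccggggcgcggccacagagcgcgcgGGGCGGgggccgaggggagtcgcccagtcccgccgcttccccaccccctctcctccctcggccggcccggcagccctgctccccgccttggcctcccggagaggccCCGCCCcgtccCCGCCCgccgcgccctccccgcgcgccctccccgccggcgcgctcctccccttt
TAF5, chr10:103367726-103367975, forward strand: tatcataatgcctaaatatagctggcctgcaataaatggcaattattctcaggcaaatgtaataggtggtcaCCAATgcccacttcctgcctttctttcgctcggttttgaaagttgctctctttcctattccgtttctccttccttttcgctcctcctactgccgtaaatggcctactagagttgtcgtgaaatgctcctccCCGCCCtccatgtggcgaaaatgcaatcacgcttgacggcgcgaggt
JUNB holds TATAAA from position -31 and CCAAT from -67, counted from the start of the gene. NFKBIA holds the same TATA letters on the opposite strand from -33, printed as TTTATA, and a GC box from -60. PIM1 holds 4 GC boxes and none of the other letters, and TAF5 holds CCAAT from -178 and a GC box from -47. A match describes the sequence and does not show that a factor binds there.

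Gene length and level went with the direction of change. Among coding genes of at least 5 CPM over the OCI-LY3 libraries, split into quintiles by span, 36.0% were higher and 39.6% lower at 6 h in the shortest quintile (median span 6.70 kb). In the next to longest quintile (median 63.2 kb) 19.2% were higher and 54.5% lower, and in the longest quintile (median 149 kb) 19.8% were higher and 45.9% lower. Genes with 2 to 4 exons were lower in 57.4% of 924 cases, and genes with 20 exons or more in 40.7% of 1462. Split by mean level instead, 14.8% were higher and 63.1% lower in the lowest quintile (median 9.23 CPM), and 55.4% were higher and 17.9% lower in the highest quintile (median 212 CPM). A gene's change itself moves its mean level. With quintiles made from the 0 h level alone, 25.4% of the lowest quintile were higher and 44.2% lower, 49.7% to 58.5% of the middle 3 quintiles were lower, and 45.1% of the highest quintile were higher and 29.3% lower, so the share of falling genes did not run evenly with level. Within a quintile the counts of higher and lower genes both move with the scaling, as above. These shares describe the genes, which are not independent replicates.

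**Figure D4:**
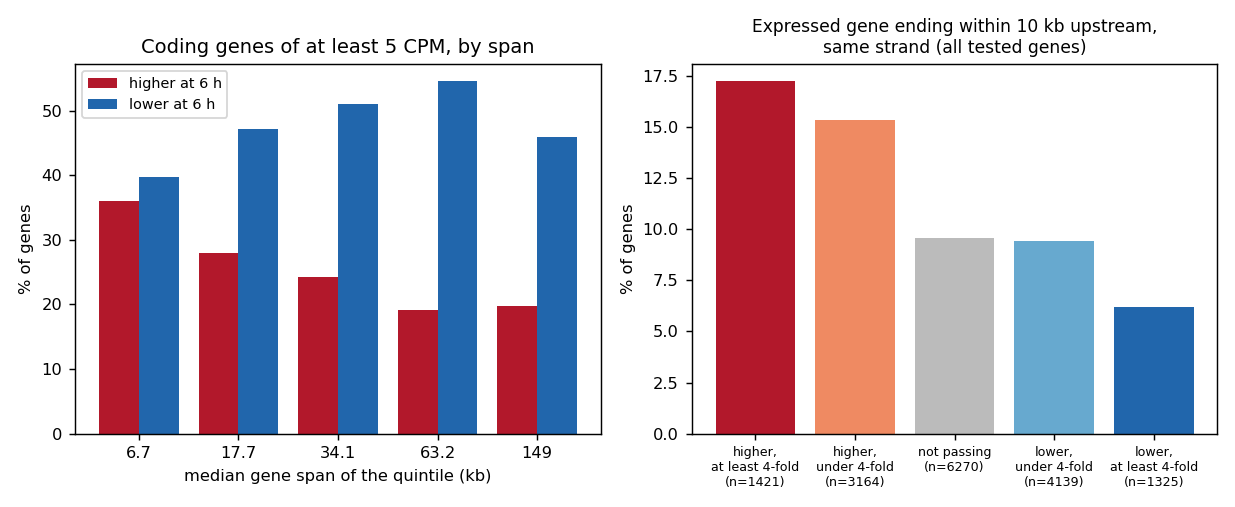
Left, percentage of coding genes of at least 5 CPM that passed as higher (red) or lower (blue) at 6 h against 0 h in OCI-LY3, by quintiles of gene span, with the median span in kb on the x axis. Right, percentage of all tested genes with an expressed same-strand gene ending within 10 kb upstream, by the size and direction of change, from 17.2% of the 1421 that rose at least 4-fold to 6.19% of the 1325 that fell at least 4-fold.

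The difference between the lines in the 6 h change was tested as 1 term of the model, OCI-LY3 minus VAL. It passed in 26.8% of genes, of which 2021 (12.3% of all) changed more upward in OCI-LY3 and 2361 (14.4%) more downward, and 11992 did not pass. In VAL the replicates at 6 h differed more than in OCI-LY3, with 51.9 by the same chi-square measure. The counts move with single libraries: without replicate 1 of OCI-LY3 at 6 h they were 1235 upward and 1453 downward, without its replicate 2 1347 and 1350. The downward count was 1096 or 1129 without replicate 1 or 2 of OCI-LY3 at 0 h, and 1034 or 1094 without replicate 1 or 2 of VAL at 0 h. PIM1 had the largest difference among core genes that passed: in OCI-LY3 it rose to 534 and 514 CPM at 6 h, against 126 and 125 CPM at 0 h, while in VAL it had 83.7 and 90.5 CPM at 6 h and 125 and 122 CPM at 0 h, a difference between the changes of 2.57 ± 0.13 (adjusted p = 4.2e-06). BCL2L1 rose in OCI-LY3 and had 26.4 and 26.1 CPM at 6 h and 39.9 and 39.9 CPM at 0 h in VAL, a difference of 1.37 ± 0.16 (adjusted p = 0.00031). NFKBIA, which did not pass in OCI-LY3 under the default scaling, had 7.26 and 10.5 CPM at 6 h and 42.4 and 44.6 CPM at 0 h in VAL, a difference of 2.11. JUNB, IER2, IRF4 and CD79B differed in the same direction, by 1.70, 1.47, 1.38 and 0.87. MCL1 had 129 and 115 CPM at 6 h and 238 and 236 CPM at 0 h in VAL and a lower change in OCI-LY3, a difference of -0.67 ± 0.22 (adjusted p = 0.044) that was close to the threshold. It no longer passed in 7 of 8 fits that leave out a library (-0.82 to -0.53 over the 8), nor with mitochondrial (-0.041) or ribosomal protein mRNAs (-0.46) held constant. BCL6 and CDKN1A also had the lower change in OCI-LY3, with differences of -0.58 and -1.06. With mitochondrially encoded mRNAs held constant these were 0.045 and -0.46 and neither passed, and 5 of 8 fits without a library for BCL6 (-0.62 to -0.44) and 4 of 8 for CDKN1A (-1.33 to -0.72) did not pass. The difference of CD79B did not pass in 7 of 8 such fits (0.72 to 1.04) and that of IRF4 in 1. For MYC the difference was 0.02 ± 0.13 and did not pass.

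The next genes averaged at least 5 CPM over 0 h and 6 h together in each line. A gene can reach that mean through a single time, as APOE at 6 h and E2F7 at 0 h did in OCI-LY3. The largest differences with the higher change in OCI-LY3 were in AP4B1, KIF1BP, IRF2BP2, BCL3, DDX3X, TAGAP, AOC3 and APOE. DDX3X, an RNA helicase, had 641 and 652 CPM at 6 h and 579.7 and 569 CPM at 0 h in OCI-LY3, while in VAL it had 57.3 and 51.7 CPM at 6 h and 419.6 and 414 CPM at 0 h. BCL3 had 10.5 and 10.9 CPM at 6 h and 42 and 43.6 CPM at 0 h in VAL, so it rose in OCI-LY3 and fell in VAL, a difference of 3.13 ± 0.15 (adjusted p = 4.2e-06). AP4B1, a subunit of the adaptor complex AP-4, had 31.4 and 33.4 CPM at 6 h and 23.2 and 22.8 CPM at 0 h in OCI-LY3, and 1.82 and 1.57 CPM at 6 h and 20.3 and 19.4 CPM at 0 h in VAL. IRF2BP2, a co-repressor, had 11.2 and 10.2 CPM at 6 h and 18.2 and 17.9 CPM at 0 h in OCI-LY3, and 1.21 and 1.52 CPM at 6 h and 21.7 and 22.1 CPM at 0 h in VAL. KIF1BP starts 3648 bases after DDX21 and AOC3 7426 bases after PSME3, each on the same strand. The largest differences the other way were in DTX4, E2F7, IGF2BP3, FCHSD2, USP37, SFMBT2, DSTYK and ARID5B. DTX4, a ubiquitin ligase of Notch signalling, had 7.72 and 8.22 CPM at 6 h and 43.5 and 42.6 CPM at 0 h in OCI-LY3, and 32.7 and 37.5 CPM at 6 h and 8.35 and 8.84 CPM at 0 h in VAL. E2F7, a repressor of E2F targets, had 1.48 and 2.07 CPM at 6 h and 12.5 and 10.3 CPM at 0 h in OCI-LY3, and 71.6 and 55.4 CPM at 6 h and 27.8 and 27.6 CPM at 0 h in VAL. FCHSD2 had 309 and 198 CPM at 6 h and 50.1 and 52.1 CPM at 0 h in VAL, so its replicates in VAL lay far apart. The difference of USP37 did not pass with ribosomal protein mRNAs held constant (-3.12). It ranged from -3.84 to -2.15 over fits that each leave out a library, and did not pass in most of them. By list, 30 of 78 mitochondrial ribosomal protein genes changed more upward in OCI-LY3 and 2 more downward (median difference 0.65), as did 12 of 37 proteasome genes against 0 (median difference 0.68). Among 34 immediate-early genes 11 differed upward and 0 downward (median difference 0.32), beside a median difference of -0.04 over all tested genes. Differences of this kind move with the scaling, since the all-gene median of the difference was 0.59, with 2821 genes higher and 396 lower, when mitochondrially encoded mRNAs were held constant.

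**Figure D5:**
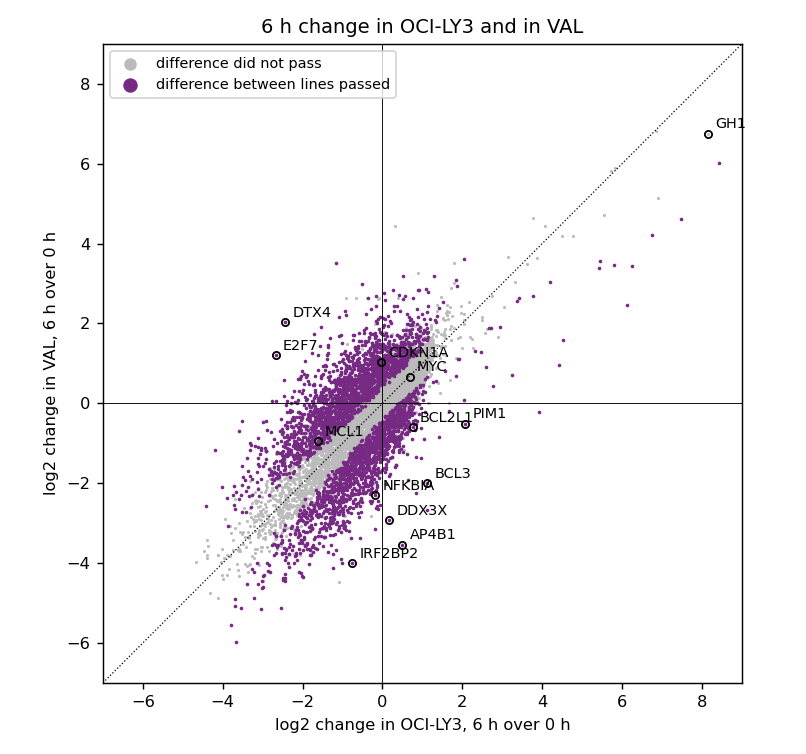
Each point is a tested gene that averaged 5 CPM or more in OCI-LY3 at 6 h and 0 h, with its log2 change at 6 h over 0 h in OCI-LY3 on the x axis and in VAL on the y axis, and the dotted line marks equal change. Purple points passed the test of the difference between the lines and grey points did not. PIM1 and BCL3 lie to the right of 0 and below it (higher in OCI-LY3, lower in VAL), and DTX4 and E2F7 lie to the left and above (lower in OCI-LY3, higher in VAL).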

How the data were processed

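RNA sequencing of poly(A) RNA gave 12 libraries, 2 per line and time. The authors deposited raw read counts for 58233 genes of GRCh38, and a log2 table of normalized expression. The submitters' processing notes name DESeq2. Aligner and counter: not given in the sources used here. Per the labels the reads were single and the kit does not mark strand.

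Counts were fitted here with edgeR 4.0.16 (R 4.3.3) in 1 quasi-likelihood model over all 6 groups, with TMM factors, filterByExpr at a minimum count of 10, and Benjamini-Hochberg adjustment over 16374 genes, leaving 6 residual degrees of freedom. DESeq2 1.42.0, limma 3.58.1 (also on the deposited log2 table), other scalings, filters, the replicate block and leaving out each library were alternatives. In simulated counts for 6 h against 0 h over 16374 genes, 91% of 100 genes changed 2-fold and 100% of 100 changed 4-fold were found. Of the unchanged genes 11 were called. The changed genes had at least 5 CPM, as many rose as fell, and all other genes were held constant. The simulation therefore does not speak of data in which most genes change, nor of the choice of scaling. Coordinates come from GENCODE 29 (16319 genes matched) and promoters from RefSeq.

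Genes named are the core list, the 10 highest and 10 lowest coding and 4 other genes each way (8 each way in the other comparisons) with a mean of at least 5 CPM, and up to 4 of each list each way by adjusted p. The highest and lowest genes against 0 h or 3 h also had both 6 h libraries on the same side of both libraries of the other time. For the difference between lines the mean was taken over 0 h and 6 h in each line. Some genes that this rule names are not reported here. Markers and genes of low level were named after their values were seen. The members and lists were chosen with earlier results of these data known. Precision is limited by 2 libraries a group; counting intervals and floors cover counting error only.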

Additional observations from a re-analysis of the deposited data

Results flagged for a closer look

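The 6 h change differed between OCI-LY3 and VAL, by the test of the difference itself (edgeR's quasi-likelihood fit, adjusted p under 0.05), in 26 named genes. Values are the log2 change in OCI-LY3 minus that in VAL. Core genes with the higher change in OCI-LY3 were PIM1 (2.573), NFKBIA (2.112), JUNB (1.703), IER2 (1.467), IRF4 (1.381), BCL2L1 (1.366) and CD79B (0.871). Core genes with the lower change in OCI-LY3 were CDKN1A (-1.059), MCL1 (-0.670) and BCL6 (-0.578), which were -0.46, -0.041 and 0.045 and did not pass with mitochondrially encoded mRNAs held constant. The other genes higher in this sense were AP4B1 (4.040), KIF1BP (3.452), IRF2BP2 (3.255), BCL3 (3.127), DDX3X (3.105), TAGAP (3.076), AOC3 (2.932) and APOE (2.860). Those lower were DTX4 (-4.462), E2F7 (-3.875), IGF2BP3 (-3.452), FCHSD2 (-3.247), USP37 (-3.235), SFMBT2 (-3.136), DSTYK (-3.061) and ARID5B (-3.040). The 16 genes outside the core were named because their difference was large, so its size is a description. The VAL libraries at 6 h differed more from each other than those of OCI-LY3. USP37, for example, had 7.27 and 6.86 CPM at 6 h in OCI-LY3 and 58.9 and 18.3 CPM at 6 h in VAL. Its difference ranged from -3.84 to -2.15 over fits that each leave out a library, and did not pass in most of them. With ribosomal protein mRNAs held constant it was -3.12 and did not pass. How far the spread in VAL shaped these differences was not tested further.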

How the results depend on the processing

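The choice that moved most results was the scaling, since the median change of all genes itself shifted with it. For 6 h against 0 h, the numbers of genes higher and lower were 1008 and 11775 scaled to mitochondrially encoded mRNAs, 1177 and 10302 scaled to ribosomal protein mRNAs, 7027 and 3506 with upper-quartile factors, and 3025 and 6968 with no composition factor. The numbers at least 2-fold higher and lower were 982 and 10504, 1107 and 8191, and 4802 and 2105 under the first 3 of these. With a mean of at least 5 CPM required they were 2946 and 3586, of which 881 and 2020 at least 2-fold. Tested against a 2-fold minimum, 1457 were higher and 2389 lower. Leaving out each library in turn gave 3741 to 3939 higher and 4516 to 4711 lower, of which 2219 to 2491 and 3216 to 3450 at least 2-fold. For 6 h against 3 h the numbers were 973 higher scaled to mitochondrially encoded mRNAs, 925 higher and 4942 lower scaled to ribosomal protein mRNAs, 3391 higher and 1590 lower with upper-quartile factors, 3621 and 4316 from the OCI-LY3 libraries alone, 410 and 118 against a 2-fold minimum, and 3259 higher from limma-voom with one weight per group. When single libraries were dropped the counts were 1070 to 1239 higher and 1538 to 1872 lower. For the difference between lines, 1458 were lower with no composition factor, 396 scaled to mitochondrially encoded and 452 to ribosomal protein mRNAs, and 312 higher and 219 lower passed a 2-fold minimum. Leaving out each library gave 1235 to 2706 higher and 1034 to 3148 lower. The settings for limma-voom with one weight per group and for the 0 h and 6 h OCI-LY3 libraries alone were chosen after seeing the data.

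Among named genes that passed under the default or the other scaling, those whose change at 6 h against 0 h turned sign when scaled to mitochondrially encoded mRNAs were E2F2 (-0.82), BTK (-0.96), CD74 (-0.52), BCL3 (-0.43), ASNS (-0.77), HSP90AB1 (-0.67), GADD45B (-0.93), CCL22 (-0.22), BIRC2 (-0.22), CDKN1B (-0.28), BCL6 (-1.02), EGR1 (-1.01), CCNT1 (-1.46), AP4B1 (-1.06), MYC (-0.87), IRF8 (-0.54), ACKR3 (-1.32), NFKBIZ (-0.36), MS4A1 (-0.99), TAGAP (-0.73), B2M (-0.37), BCL2L1 (-0.80), RPLP2 (-0.32), NPM1 (-0.82), POLR2A (-1.42), SUPT5H (-1.16), MME (-1.40) and DDX3X (-1.39). Those that turned when scaled to ribosomal protein mRNAs were E2F2 (-0.39), BTK (-0.53), CD74 (-0.092), BCL3 (-0.0014), ASNS (-0.34), HSP90AB1 (-0.24), GADD45B (-0.50), BCL6 (-0.58), CCNT1 (-1.02), AP4B1 (-0.63), MYC (-0.44), IRF8 (-0.11), ACKR3 (-0.88), MS4A1 (-0.56), TAGAP (-0.29), BCL2L1 (-0.36), NPM1 (-0.38), POLR2A (-0.99), SUPT5H (-0.73), MME (-0.97) and DDX3X (-0.96). With upper-quartile factors the sign turned for CDKN1A (0.49) and BCL2A1 (0.35), and without passing under either for NFKBIA (0.33), CCND2 (0.43), PMAIP1 (0.20), BCL2L11 (0.30), SLC30A1 (0.18) and BCL2 (0.44). The difference between lines turned for BCL6 (0.045) when scaled to mitochondrially encoded mRNAs. Of 53 lists, the median turned in 16 scaled to mitochondrially encoded mRNAs, 15 scaled to ribosomal protein mRNAs and 15 with upper-quartile factors. Among described lists with at least 3 calls one way and at least 2 times as many as the other way, it turned when scaled to mitochondrially encoded mRNAs for MHC class II antigen presentation genes (-0.92), MHC class I antigen presentation genes (-0.93), NRF2 and glutathione genes (-0.73), glycolysis genes (-0.76), cytosolic ribosomal protein genes (-0.42), nuclear respiratory-chain subunit genes (-0.61), proteasome subunit genes (-0.94) and histone cluster genes (-0.53), when scaled to ribosomal protein mRNAs for MHC class II antigen presentation genes (-0.49), MHC class I antigen presentation genes (-0.50), NRF2 and glutathione genes (-0.29), glycolysis genes (-0.33), nuclear respiratory-chain subunit genes (-0.17), proteasome subunit genes (-0.51) and histone cluster genes (-0.10), and with upper-quartile factors for elongation factors and transcriptional kinases (0.0024), poly(A) cleavage, termination and Integrator genes (0.13), pro-apoptotic BCL2 genes (0.20), NF-kB subunits and inhibitors (0.0081), B-cell receptor signalling genes (0.14), G1 cyclins, their kinases and inhibitors (0.25) and homologous recombination and Fanconi genes (0.032). Such a scaling shifts every gene by a common amount. Of the values of named genes with a library left out, 983 stayed on their side of the threshold, 48 no longer passed and 5 came to pass.

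The replicate numbers were not taken as pairs, since the correlation of deviations was over 0.1 in only 4 of 15 pairs of groups. It was -0.00662 between the 6 h and 0 h libraries of OCI-LY3, 0.0956 between 6 h and 3 h, -0.174 between 3 h and 0 h, and -0.102 between 6 h and 0 h of VAL. The lowest was -0.58, between the 3 h libraries of OCI-LY3 and VAL, and the highest 0.80, between VAL at 6 h and 3 h. With the replicate number as a block within each line the counts were 4886 higher and 5726 lower for 6 h against 0 h, 2411 and 3136 for 6 h against 3 h, and 2439 and 2840 for the difference between lines. With 2 libraries a group an exact permutation test of 1 gene cannot give a two-sided p below 0.333, so all calls rest on the spread pooled over genes and groups. Changes of genes with few reads at 0 h are limited by depth.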
